A study of Homo sapiens with 60 samples.

Results

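The 28 genes described here make cholesterol from acetyl-CoA, sense sterol in the endoplasmic reticulum, or take up and move sterol in the cell. They were the rows of the deposited count table whose Ensembl identifier belongs to a fixed list of 28 gene symbols, 28 of 60675 genes in the table, and all 28 held enough counts to be tested. They were followed in HepG2 cells, a human liver cancer line, after 24 h with water extracts of herbs used for digestive complaints. The study asked which transcripts such extracts change, so that each extract could be described by its expression profile. The single herbs were Aconiti Lateralis Radix Preparata (processed aconite root), Bupleuri Radix, Cimicifugae Rhizoma and Citri Unshius Pericarpium (mandarin peel), and the mixtures were Banhasasim-tang, Yijung-tang and Bojungikgi-tang.

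All extracts but Bojungikgi-tang, 6 of 7, had 3 libraries at each of 20, 100 and 500 µg/mL. Bojungikgi-tang had 1 library per dose, and 3 further libraries came from cells given vehicle alone, which makes 60 libraries. The sample labels give the vehicle as 0.1% DMSO for 24 h, whereas the description of the series gives 2% DMSO and also names a wortmannin control, which was not analysed here. It adds that toxic extracts were given at lower doses and that libraries with scarce RNA were left out. Doses here are those of the labels, which do not say whether any of these extracts was treated in that way. Whether the 3 libraries of a group came from different cultures is not in the labels, and the p-values rest on their spread, which may be technical in part. All 60 titles carry the label BatchB, the vehicle included. Sets were read from the leading part of the sample code in the titles, and what that part stands for is not stated. It places the extracts in sets of 2 (Cimicifugae Rhizoma with Citri Unshius Pericarpium, Aconiti Lateralis Radix Preparata with Bupleuri Radix, Banhasasim-tang with Yijung-tang) and the vehicle in a set of its own.

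As background, cholesterol is built from acetyl-CoA through mevalonate, farnesyl diphosphate, squalene and lanosterol. Most genes of this path are switched on together by the transcription factor SREBP2 (gene SREBF2), which the escort protein SCAP carries from the endoplasmic reticulum to the Golgi for cleavage when sterol is low. When sterol is high, INSIG1 and INSIG2 hold SCAP in the endoplasmic reticulum and the genes of the path fall. Liver cells both make much cholesterol and take it up, and HepG2 cells keep these functions. At promoters, SREBP2 binds sterol response elements together with the factors NF-Y and Sp1.

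Deposited values are expected counts, estimates of reads per gene, which summed to 17598646 to 30451640 per library. Levels below are in CPM, a gene's share of its library's counts scaled to a common total and corrected by the trimmed mean of M values (TMM). Hepatocyte markers were high in all 60 libraries, with ALB (albumin) at 6558 to 10250 CPM and AFP at 3045 to 4076 CPM. Of 12 markers of other cell types, KDR and KRT5 were at 0 in 60 of 60 libraries and COL1A2 in 59, whereas CD68 was at 31.06 to 70.81 CPM, PECAM1 at 1.665 to 5.976 CPM and CD14 at 0.9181 to 2.805 CPM. Vehicle replicate 2 stood apart. It held 152 counts of PTPRC, a leukocyte marker at 0 in the other vehicle libraries and at most 1 count in the 57 extract libraries. HBA2 and HBB, haemoglobin genes looked up after the data were seen, had 2323 and 940 counts there, 0 in both other vehicle libraries and at most 3 counts in any extract library. Results against vehicle are therefore also given without that library. Mitochondrial transcripts made up 17.81 to 18.26% of counts with Aconiti Lateralis Radix Preparata at 500 µg/mL against 9.832 to 10.78% at 20 µg/mL, and 7.715 to 9.204% in vehicle.

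Promoter sequence is described first, because coordinated regulation of the path is known to run through shared elements. It was searched after the dose comparisons below had been made. RefSeq (GRCh38.p14) windows from 250 bases before to 50 bases after each start were at hand for 25 of the 28 genes. The sterol response element searched as TCACNCCAC on both strands was in 1 of these 25 genes, SREBF2 itself, and in 1.39% of all 27305 genes with a window. The match lies 133 bases before the start on the gene's own strand, at chr22:41832947-41833005 (plus strand), where it is in capitals:
SREBF2: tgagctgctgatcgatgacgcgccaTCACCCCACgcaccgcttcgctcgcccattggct
A shorter form of the element, CACNCCAC, which the longer one contains, was in 4 of 25 genes (SREBF2, INSIG1, IDI1 and SC5D, 16%) against 7.05% of the 27305 genes. The SREBP E-box TCACGTGA was in 1 of 25, INSIG1, against 1.18%. Both were searched on both strands. The NF-Y box, searched as CCAAT on both strands (ATTGG on the other), was in 19 of 25 genes (76%) against 39.72% of the 27305 genes. The Sp1 box GGGCGG, on both strands, was in 22 of 25 (88%) against 48.3%. Genes with more than 1 listed start have more windows and so more chances of a match. The 27305 genes are all those with a window, whether or not they held enough counts to be tested here. The shares among tested genes alone were not taken, so the higher shares need not be particular to this path. The runs below are shown because their genes carry the dose responses described next, and because the boxes, in capitals, recur within a short stretch:
HMGCS1: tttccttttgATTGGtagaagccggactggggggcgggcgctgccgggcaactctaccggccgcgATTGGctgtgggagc
MVK: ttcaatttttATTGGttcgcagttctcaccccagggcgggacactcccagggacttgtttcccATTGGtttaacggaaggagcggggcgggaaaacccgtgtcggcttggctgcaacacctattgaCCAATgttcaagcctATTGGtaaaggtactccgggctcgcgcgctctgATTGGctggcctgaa
MVD: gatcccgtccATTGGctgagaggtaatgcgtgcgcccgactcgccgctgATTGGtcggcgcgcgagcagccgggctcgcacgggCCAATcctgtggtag
MSMO1: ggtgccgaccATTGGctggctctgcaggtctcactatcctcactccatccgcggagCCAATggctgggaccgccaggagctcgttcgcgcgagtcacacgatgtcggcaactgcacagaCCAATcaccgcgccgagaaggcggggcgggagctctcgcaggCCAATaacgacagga
STARD4: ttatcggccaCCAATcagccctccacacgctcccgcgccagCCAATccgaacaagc
All are written along the gene's strand from GRCh38.p14. HMGCS1 is at chr5:43313498-43313577 (minus strand, 2 boxes), MVK at chr12:109573574-109573762 (plus, 5 boxes), MVD at chr16:88663162-88663260 (minus, 3 boxes), MSMO1 at chr4:165327474-165327649 (plus, 4 boxes) and STARD4 at chr5:111512651-111512706 (minus, 2 boxes). A box in these letters was in 16 of the 18 genes with a window that were called lower in 3 or more extracts (below). It was in 3 of the 7 called lower in none. These 3 include INSIG1, whose counts were too low for a fall to be seen. This grouping rests on calls from the same data and on few genes, and the difference was not tested. INSIG2, NPC1, SCAP and PMVK had no CCAAT in their windows, nor had CYP51A1 and LBR, which fell in 3 extracts each. A match is a string of letters and was not shown here to be bound, and a window without a match says nothing of the factor.

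In the GENCODE 29 annotation (GRCh38) HMGCS1 is at chr5:43289395-43313512, MVK at chr12:109573255-109598117, INSIG2 at chr2:118088452-118110997 and NPC1 at chr18:23506184-23586898, all protein-coding genes. Levels in vehicle are compared between genes only per kilobase of exon. On that scale HMGCS1, the synthase that makes HMG-CoA, was highest at 104 CPM per kb. SQLE, FDFT1, MSMO1 and CYP51A1 followed at 95.9, 92.5, 90.1 and 82.8 CPM per kb. The regulators were lower, with SREBF2 at 24.5, INSIG2 at 19.5 and SCAP at 15.4 CPM per kb. The lowest enzymes were PMVK at 9.30, HSD17B7 at 8.05 and GGPS1 at 7.87 CPM per kb. INSIG1 stood far below all others with 1 to 32 counts in a library. Because 3 counts, the limit that a count of 0 allows, corresponds to 0.0964 to 0.165 CPM, no fold change is given for INSIG1, and medians below are over the other 27 genes.

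From 20 to 500 µg/mL, 14 to 21 of the 28 genes fell in each of 4 of the 6 extracts, by up to 43.9% of their level, while NPC1 and INSIG2 rose in the same 4. A gene is called lower or higher where edgeR's quasi-likelihood test gave a Benjamini-Hochberg adjusted p under 0.05 over the 16093 genes tested. With Aconiti Lateralis Radix Preparata 21 of the 28 genes were lower and 2 higher, where 37.2% of all genes tested were called in either direction and 18.1% were lower. With Bupleuri Radix 21 were lower and 2 higher, against 18.8% of all genes called and 8.89% lower. With Banhasasim-tang 20 were lower and 2 higher, against 15.1% called and 6.52% lower. With Cimicifugae Rhizoma 14 were lower and 4 higher, against 39.2% called and 19.7% lower. Of these 4 higher genes only NPC1 and INSIG2 kept their call whichever library of the comparison was left out, and each such refit had 2 or 3 genes higher. With Citri Unshius Pericarpium 5 were lower and 0 higher, against 1.65% called and 0.92% lower. With Yijung-tang 0 were called, against 3.77% of all genes and 2.12% lower. In that extract 4 genes had an unadjusted p under 0.05 in edgeR, a threshold at which all genes were not counted. DESeq2 called 1, TM7SF2.

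The median log2 difference of the 27 genes was -0.42 with Aconiti Lateralis Radix Preparata, -0.37 with Bupleuri Radix, -0.32 with Banhasasim-tang, -0.11 with Cimicifugae Rhizoma, -0.11 with Citri Unshius Pericarpium and -0.03 with Yijung-tang. Over all genes tested the medians were within 0.00328 of 0 in these 6 comparisons. TMM scaling largely sets this, so it is a reference point and not a result. The count for Citri Unshius Pericarpium fell from 5 to 1 when its 20 µg/mL replicate 1, its 500 µg/mL replicate 2 or its 500 µg/mL replicate 3 was left out, and to 2 without its 20 µg/mL replicate 2. In bulk RNA, fewer cells of a kind and less RNA per cell cannot be told apart. HMGCS1, HSD17B7 and STARD4 fell in 5 of the 6 extracts, and PMVK, GGPS1, SCAP and INSIG1 were called in none. Citri Unshius Pericarpium is among these 5, and its calls depended on which libraries were kept, here and below.

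**Figure D1:**
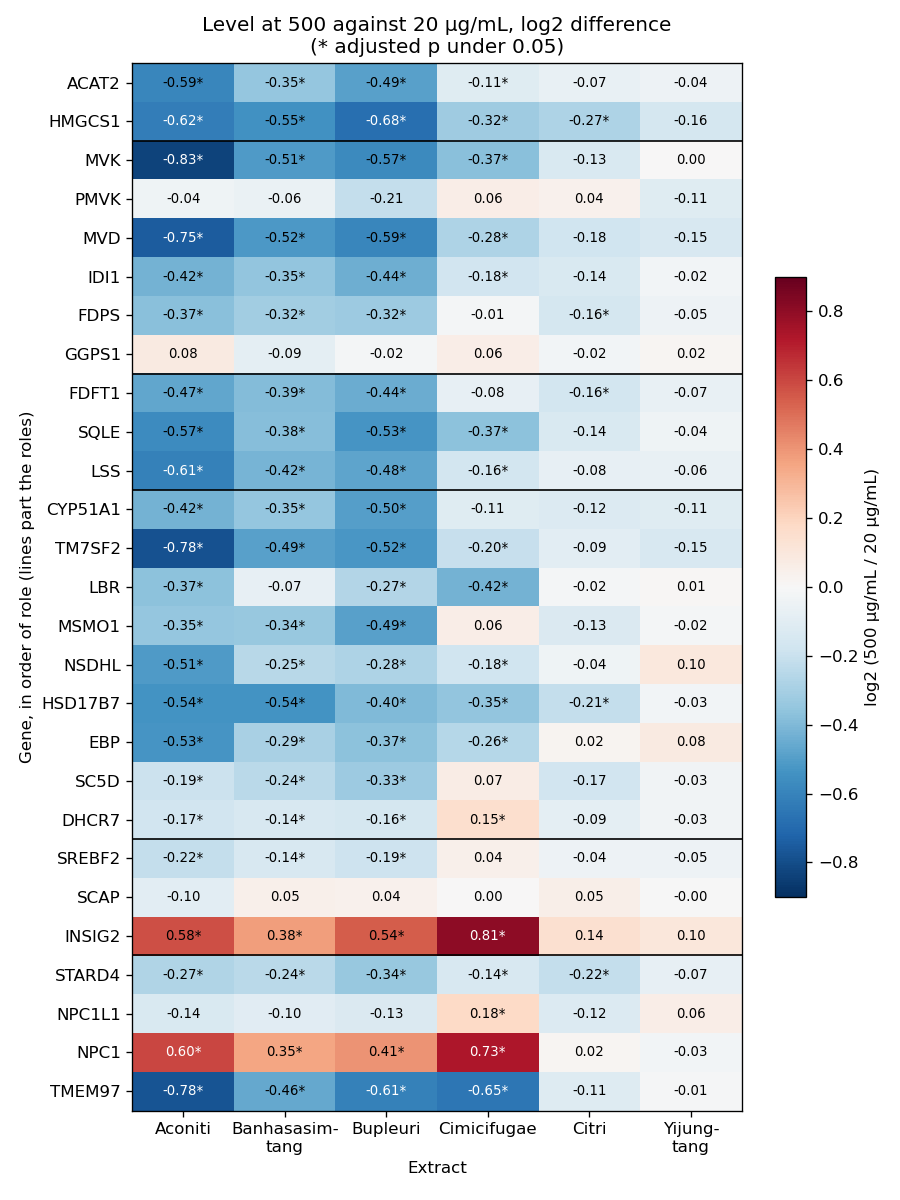
Log2 difference between 500 and 20 µg/mL for 27 genes (rows, grouped by role) in 6 extracts (columns), with an asterisk where the adjusted p was under 0.05. Blue (lower) cells with an asterisk fill the first 3 columns from ACAT2 to SREBF2 except at PMVK, GGPS1 and LBR with Banhasasim-tang, and NPC1 and INSIG2 are red (higher) in 4 columns.

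Some measures outside the path also differed between these doses, in part of the extracts. With Aconiti Lateralis Radix Preparata, besides the mitochondrial share given above, 6 of 11 tested transcripts of a list of RNA quality signs rose (summed level 1060 to 1214 CPM at 500 and 796.4 to 956.4 CPM at 20 µg/mL), and of 10 hepatocyte markers 7 fell and 1 rose. With Cimicifugae Rhizoma 3 of the 11 rose, and of the 10 hepatocyte markers 5 fell and 2 rose (TTR by 0.64 ± 0.08 and AHSG by 0.36 ± 0.04 on the log2 scale). With Banhasasim-tang and with Bupleuri Radix 0 of the 11 were called, and of the 10 hepatocyte markers 2 fell and 2 rose in each. Of all genes tested 37.2% were called with Aconiti Lateralis Radix Preparata, 39.2% with Cimicifugae Rhizoma, 15.1% with Banhasasim-tang and 18.8% with Bupleuri Radix. The median difference of the 11 signs of RNA quality was 0.49 with Aconiti Lateralis Radix Preparata, 0.23 with Cimicifugae Rhizoma, 0.08 with Banhasasim-tang and 0.15 with Bupleuri Radix. For Banhasasim-tang and Bupleuri Radix the mitochondrial share at 500 µg/mL was 9.439 to 10.67% and 10.81 to 12%, against 9.047 to 9.958% and 9.074 to 9.968% at 20 µg/mL. Markers of other cell types summed to 54.69 to 56.61 CPM at 20 and 72.47 to 75.48 CPM at 500 µg/mL of Aconiti Lateralis Radix Preparata, mainly from CD68. Of 5 such markers tested 2 fell and 1 rose there. The part of these measures in the gene results was not tested.

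The entry to the path fell, ACAT2 in 4 extracts and HMGCS1 in 5. ACAT2, the cytosolic thiolase that joins acetyl-CoA units, was at 227, 228 and 225 CPM with 20 µg/mL of Aconiti Lateralis Radix Preparata and at 156, 155 and 142 CPM with 500 µg/mL. The groups did not overlap, and the log2 difference was -0.59 ± 0.04 (SE, n = 3 per group, adjusted p = 2.4e-16, edgeR). HMGCS1 went from 449, 436 and 426 to 299.9, 265 and 254 CPM with Bupleuri Radix, where it fell by 37.5%. All 3 libraries of the high dose lay below all 3 of the low dose, and the log2 difference was -0.68 ± 0.06 (adjusted p = 1.5e-13, edgeR). HMGCS1 was also at 373, 336 and 335 CPM with 500 µg/mL of Citri Unshius Pericarpium, against 440.3, 412 and 411 CPM at 20 µg/mL, a log2 difference of -0.27 ± 0.06 (adjusted p = 0.0022, edgeR). With Yijung-tang it differed by -0.16 ± 0.06, which did not pass, although its libraries at the 2 doses did not overlap (adjusted p = 0.12, edgeR). ACAT2 overlaps TCP1 on the opposite strand and MVK overlaps MMAB. The library kit marks strand, but the counting setting is not given in the sources used here, so reads of such partners may not have been told apart.

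Among the 6 enzymes that turn mevalonate into isoprenoids, MVK, MVD, IDI1 and FDPS fell in 4 extracts each. MVK, mevalonate kinase, showed the largest fall among the 28 genes. It was at 75.8, 78.9 and 80.9 CPM with 20 µg/mL of Aconiti Lateralis Radix Preparata and 42.6, 44.9 and 44.8 CPM with 500 µg/mL, a log2 difference of -0.83 ± 0.04 (adjusted p = 4.7e-21, edgeR). In Yijung-tang its libraries held 81.01, 80.7 and 74.98 CPM at 20 and 83.8, 79.6 and 73.97 CPM at 500 µg/mL, which overlap. MVD, the decarboxylase that follows, went from 180.0, 198 and 195 to 110.2, 112 and 119 CPM with Aconiti Lateralis Radix Preparata (-0.75 ± 0.06) and from 222, 224 and 197 to 156, 138 and 155 CPM with Banhasasim-tang (-0.52 ± 0.06). IDI1, the isomerase of isopentenyl diphosphate, fell in 4 extracts by log2 differences of -0.44 to -0.18. FDPS, which makes farnesyl diphosphate, fell in Aconiti Lateralis Radix Preparata, Banhasasim-tang, Bupleuri Radix and Citri Unshius Pericarpium (-0.37 to -0.16). In the last of these, calls depended on which libraries were kept, as given above. With Cimicifugae Rhizoma FDPS was at 196, 194 and 189 CPM at 20 and 195, 194 and 185 CPM at 500 µg/mL, and its difference of -0.01 had a 95% interval of -0.10 to 0.07.

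The other two genes of this step were not called in any extract. PMVK, phosphomevalonate kinase, was a low gene at 11.9 ± 0.518 CPM in vehicle (SD, n = 3), and its differences of -0.21 to 0.06 came with a standard error of up to 0.13. Its 95% interval with Aconiti Lateralis Radix Preparata, -0.31 to 0.23, leaves out falls as large as those of MVK and MVD. GGPS1 makes geranylgeranyl diphosphate on a branch that leaves the sterol path. Its 95% interval there was -0.04 to 0.20, and its libraries at the 2 doses overlapped in all 6 extracts.

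The enzymes from squalene to lanosterol, FDFT1, SQLE and LSS, fell in 4 extracts each. FDFT1, squalene synthase, went from 425, 425 and 409 to 309, 309 and 294 CPM with Aconiti Lateralis Radix Preparata, a log2 difference of -0.47 ± 0.04. SQLE, the squalene epoxidase that is a control point of the path, went from 417, 407 and 394 to 288, 280.2 and 276 CPM with Bupleuri Radix (-0.53 ± 0.04, adjusted p = 2.1e-14, edgeR). LSS, which closes the rings to lanosterol, went from 264, 273 and 276 to 177, 175 and 183 CPM with Aconiti Lateralis Radix Preparata (-0.61 ± 0.04). The high-dose libraries lay below the low-dose ones in each of these. With Cimicifugae Rhizoma SQLE and LSS were called and FDFT1 was not. SQLE fell there by 22.4%, from 411, 396 and 379.9 to 317, 307 and 297 CPM, whereas FDFT1 was at 435, 426 and 425 CPM at 20 and 435, 389.6 and 394 CPM at 500 µg/mL and did not pass (adjusted p = 0.15, edgeR).

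The 9 enzymes from lanosterol to cholesterol fell 9 of 9 with Aconiti Lateralis Radix Preparata and with Bupleuri Radix, and 8 of 9 with Banhasasim-tang. With Cimicifugae Rhizoma 5 of 9 fell and 1 rose, and with Citri Unshius Pericarpium 1 fell, HSD17B7. TM7SF2 and LBR both code for sterol reductases acting on the same double bond. TM7SF2 went from 89.03, 90.2 and 83.2 to 63.9, 60.01 and 63.2 CPM with Banhasasim-tang (-0.49 ± 0.05), while LBR was at 173, 168 and 176 CPM at 20 and 165, 159 and 167 CPM at 500 µg/mL and was not called (-0.07 ± 0.04, adjusted p = 0.25, edgeR). With Cimicifugae Rhizoma LBR went from 169.7, 167 and 176 to 127, 121 and 134 CPM (-0.42 ± 0.04), a fall of 25.5%, and TM7SF2 fell by 13.2%. The difference between the 2 genes was not itself tested. LBR is also a protein of the inner nuclear membrane that binds chromatin. TM7SF2 overlaps VPS51 on its own strand.

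CYP51A1, lanosterol demethylase, fell by 29.1% with Bupleuri Radix, from 279, 271 and 271 to 201, 197 and 185 CPM. MSMO1, the methyl sterol oxidase, went from 234, 221 and 239.7 to 172, 163 and 159 CPM with the same extract (-0.49 ± 0.06). NSDHL and HSD17B7, which complete the removal of the methyl groups, fell by 29.8% and 31.2% with Aconiti Lateralis Radix Preparata. With Banhasasim-tang HSD17B7 went from 40.6, 39.8 and 38.4 to 27.8, 27.8 and 26.1 CPM (-0.54 ± 0.06). EBP, the sterol isomerase, went from 85.7, 93.9 and 92.6 to 65.1, 61.3 and 62.5 CPM with Aconiti Lateralis Radix Preparata (-0.53 ± 0.06).

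The last enzymes of the path moved by less. SC5D, the sterol desaturase, fell by log2 differences of -0.33 to -0.19 in 3 extracts. DHCR7, the reductase of the final step, fell by 11.3%, 9.54% and 10.3% with Aconiti Lateralis Radix Preparata, Banhasasim-tang and Bupleuri Radix. With Cimicifugae Rhizoma DHCR7 was higher, 297, 276 and 257 CPM at 500 µg/mL against 259, 250.3 and 238 CPM at 20 µg/mL (0.15 ± 0.04, adjusted p = 0.0053, edgeR), although these groups overlap, and the call was lost without its 500 µg/mL replicate 1 (adjusted p = 0.106) or its 20 µg/mL replicate 3 (adjusted p = 0.0574, edgeR). CYP51A1, MSMO1 and SC5D were not called in that extract, with differences of -0.11, 0.06 and 0.07.

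Among the regulators SREBF2 fell, INSIG2 rose, and SCAP was not called. SREBF2, the gene of SREBP2 and itself a target of that factor, went from 209.9, 208 and 220.1 to 182, 182 and 185 CPM with Aconiti Lateralis Radix Preparata. It fell by 13.9%, 9.56% and 12.2% with Aconiti Lateralis Radix Preparata, Banhasasim-tang and Bupleuri Radix, and the difference with Cimicifugae Rhizoma was 0.04 ± 0.04, not called. The microRNA gene MIR33A lies inside SREBF2. SCAP, the sterol-sensing escort, was called in no extract, and its differences were -0.10 to 0.05. INSIG2, the retention protein, was at 60.1, 60.6 and 64.7 CPM with 20 µg/mL of Cimicifugae Rhizoma and 108, 104 and 113 CPM with 500 µg/mL. It rose by 75.1%, the largest rise among the 28 genes (0.81 ± 0.07, adjusted p = 2.8e-14, edgeR). INSIG2 rose by 49.6%, 45.7% and 29.9% with Aconiti Lateralis Radix Preparata, Bupleuri Radix and Banhasasim-tang, with no overlap between doses. INSIG1, its partner gene and a known SREBP2 target, was at 0.217, 0.222 and 0.356 CPM at 20 and 0.311, 0.143 and 0.137 CPM at 500 µg/mL of Aconiti Lateralis Radix Preparata, at or near the limit above. No change of it could be detected in these counts, and whether the counting assigned all its reads to it is not known.

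Genes of sterol uptake and transport moved in both directions. NPC1, the lysosomal protein that releases cholesterol taken up from lipoproteins, was at 117, 117 and 121 CPM at the low and 199, 192 and 199 CPM at the high dose of Cimicifugae Rhizoma. It rose by 65.9% (0.73 ± 0.04, adjusted p = 8.0e-21, edgeR), and by 51.9%, 32.6% and 27.7% with Aconiti Lateralis Radix Preparata, Bupleuri Radix and Banhasasim-tang. TMEM97, a membrane protein that binds NPC1 and is induced when sterol is low, went the other way. It went from 245, 223 and 225 to 136, 143 and 125 CPM with Aconiti Lateralis Radix Preparata (-0.78 ± 0.05) and fell by 36.2% with Cimicifugae Rhizoma. In the annotation NPC1 overlaps RMC1 and a Y RNA gene, 1 on each strand, and TMEM97 overlaps IFT20 on the opposite strand, with the limit given above. STARD4, a carrier of cholesterol between membranes, fell in 5 extracts by -0.34 to -0.14 on the log2 scale. Citri Unshius Pericarpium is among them, where calls depended on which libraries were kept. NPC1L1, the transporter that takes up cholesterol from gut and bile, was higher with Cimicifugae Rhizoma, 65.4, 65.99 and 68.97 against 56.97, 57.8 and 61.9 CPM (0.18 ± 0.07, adjusted p = 0.042, edgeR), and called in no other extract. That call was lost in 5 of 6 refits that each left out 1 library of the comparison, all but that without the 20 µg/mL replicate 3, at adjusted p of 0.0571 to 0.137.

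**Figure D2:**
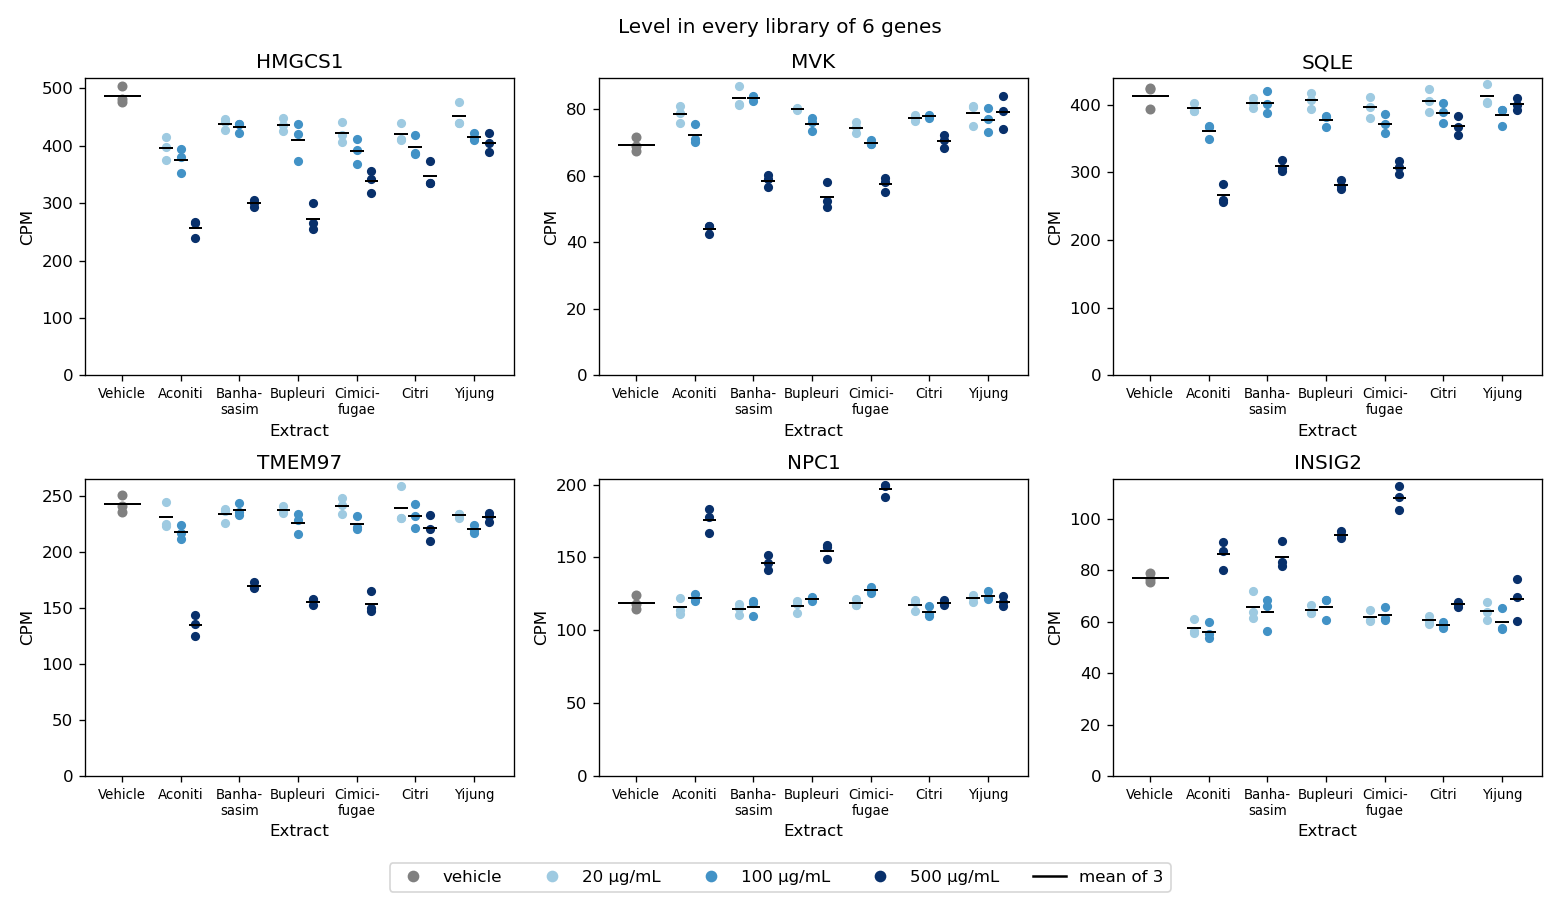
Level in CPM of 6 genes in every vehicle library and every library of 6 extracts at 3 doses, with a bar at each mean of 3. For HMGCS1, MVK, SQLE and TMEM97 the 500 µg/mL points of Aconiti, Banhasasim-tang, Bupleuri and Cimicifugae lie below their 20 and 100 µg/mL points, and for NPC1 and INSIG2 above them.

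The changes were seen at the highest dose and hardly at 100 µg/mL. Between 100 and 20 µg/mL, TM7SF2 was lower with Aconiti Lateralis Radix Preparata (-0.17 ± 0.05) and with Yijung-tang (-0.23 ± 0.04), where its libraries held 91.3, 91.03 and 86.4 CPM at 20, 79.7, 71.6 and 77.5 CPM at 100 and 82.4, 83.4 and 77.02 CPM at 500 µg/mL. In this fit these were the calls among the 28 genes, 1 in each of the 2 extracts, where 5.68% and 1.24% of all genes tested were called. The call with Aconiti Lateralis Radix Preparata was lost without its 100 µg/mL replicate 1 or 3 or its 20 µg/mL replicate 2, and that with Yijung-tang when only the libraries compared were fitted. In the other 4 extracts 0 of 28 were called in edgeR, against 0.0124% of all genes with Banhasasim-tang, 0.162% with Bupleuri Radix, 1.29% with Cimicifugae Rhizoma and 0.0249% with Citri Unshius Pericarpium. At an unadjusted p under 0.05 the counts in these 4 were 0, 2, 9 and 2. All genes were not counted at that threshold, so these counts have no background. DESeq2 called 0 in each. With only the libraries compared, Cimicifugae Rhizoma had 1 call, where 344 of all genes were called. A fit with a block for the replicate number within the set called 3 for Cimicifugae Rhizoma and 1 for Bupleuri Radix. In that fit 381 and 55 of all genes were called. It called 3 for Aconiti Lateralis Radix Preparata and 4 for Yijung-tang, where 1245 and 483 of all genes were called. The median difference of the 27 genes at 100 µg/mL ran from -0.05 to 0.02 over the 6 extracts, and at 500 µg/mL from -0.42 to -0.03.

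**Figure D3:**
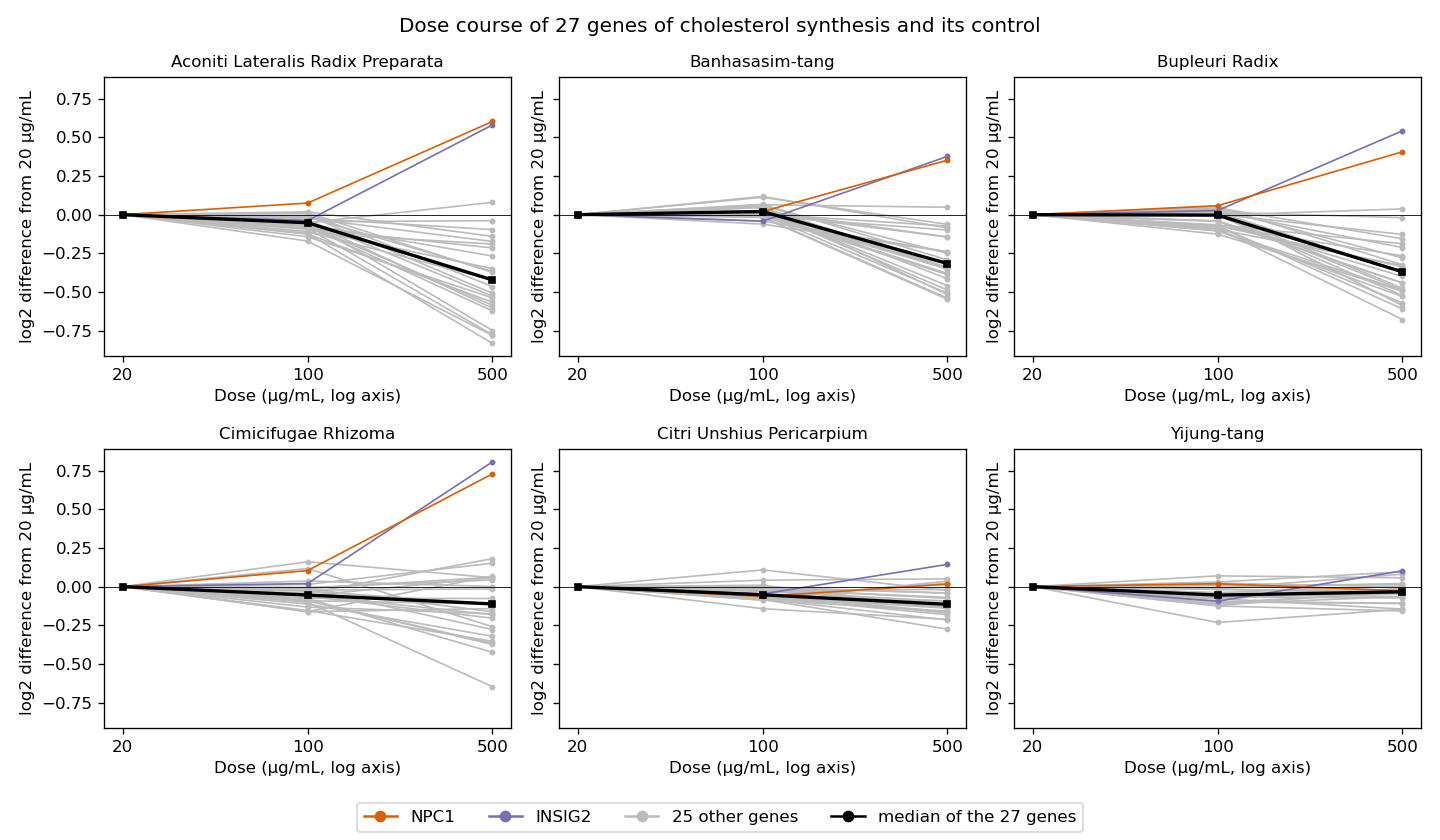
Log2 difference of 27 genes from their 20 µg/mL mean at 100 and 500 µg/mL (log dose axis), 1 panel per extract, with the median of the 27 genes in black. The median lies between -0.05 and 0.02 at 100 µg/mL in all 6 panels and is at -0.42, -0.32 and -0.37 at 500 µg/mL in the top row.

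Extracts of a set were set against each other, which leaves out the vehicle. At 500 µg/mL Banhasasim-tang had 19 genes lower and 2 higher than Yijung-tang, where 14.9% of all genes tested were called. Aconiti Lateralis Radix Preparata had 10 lower and 1 higher than Bupleuri Radix, against 23.5% of all genes. Cimicifugae Rhizoma had 8 lower and 6 higher than Citri Unshius Pericarpium, against 41.8%. In this last pair the 28 genes were called at about the rate of all genes, and on both sides. The test of whether the 500 against 20 µg/mL difference itself differed gave 16 lower and 2 higher for Banhasasim-tang against Yijung-tang (background 12.1%), 3 and 1 for Aconiti Lateralis Radix Preparata against Bupleuri Radix (background 10.2%), and 5 and 5 for Cimicifugae Rhizoma against Citri Unshius Pericarpium (background 28.2%). In the latter pairs the share of the 28 genes called, 14.3 and 35.7%, was near the background.

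The mixtures Banhasasim-tang and Yijung-tang differed in 18 of 28 dose differences. HMGCS1 was at 306, 293 and 301 CPM with the first and 389, 423 and 404 CPM with the second at 500 µg/mL (-0.43 ± 0.06, adjusted p = 4.7e-08, edgeR). The dose differences of HSD17B7 and MVK differed by -0.51 ± 0.08 and -0.51 ± 0.06 on the log2 scale between the 2 mixtures. Those of NPC1 and INSIG2 differed by 0.38 ± 0.06 and 0.27 ± 0.09. For Cimicifugae Rhizoma against Citri Unshius Pericarpium, NPC1 (0.71 ± 0.06), INSIG2 (0.66 ± 0.10), NPC1L1, DHCR7 and SC5D had the higher dose difference, and TMEM97 (-0.53 ± 0.06), LBR (-0.41 ± 0.06), EBP, MVK and SQLE the lower. HMGCS1, ACAT2, IDI1 and CYP51A1 did not pass in that pair, and the 95% interval for HMGCS1 was -0.21 to 0.11. Aconiti Lateralis Radix Preparata had lower dose differences than Bupleuri Radix for MVK (-0.26 ± 0.06), TM7SF2 (-0.26 ± 0.07) and NSDHL (-0.23 ± 0.08), and a higher one for NPC1 (0.20 ± 0.06). That count of 4 fell to 2 without Bupleuri Radix 20 µg/mL replicate 1, Bupleuri Radix 500 µg/mL replicate 3 or Aconiti Lateralis Radix Preparata 20 µg/mL replicate 3.

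**Figure D4:**
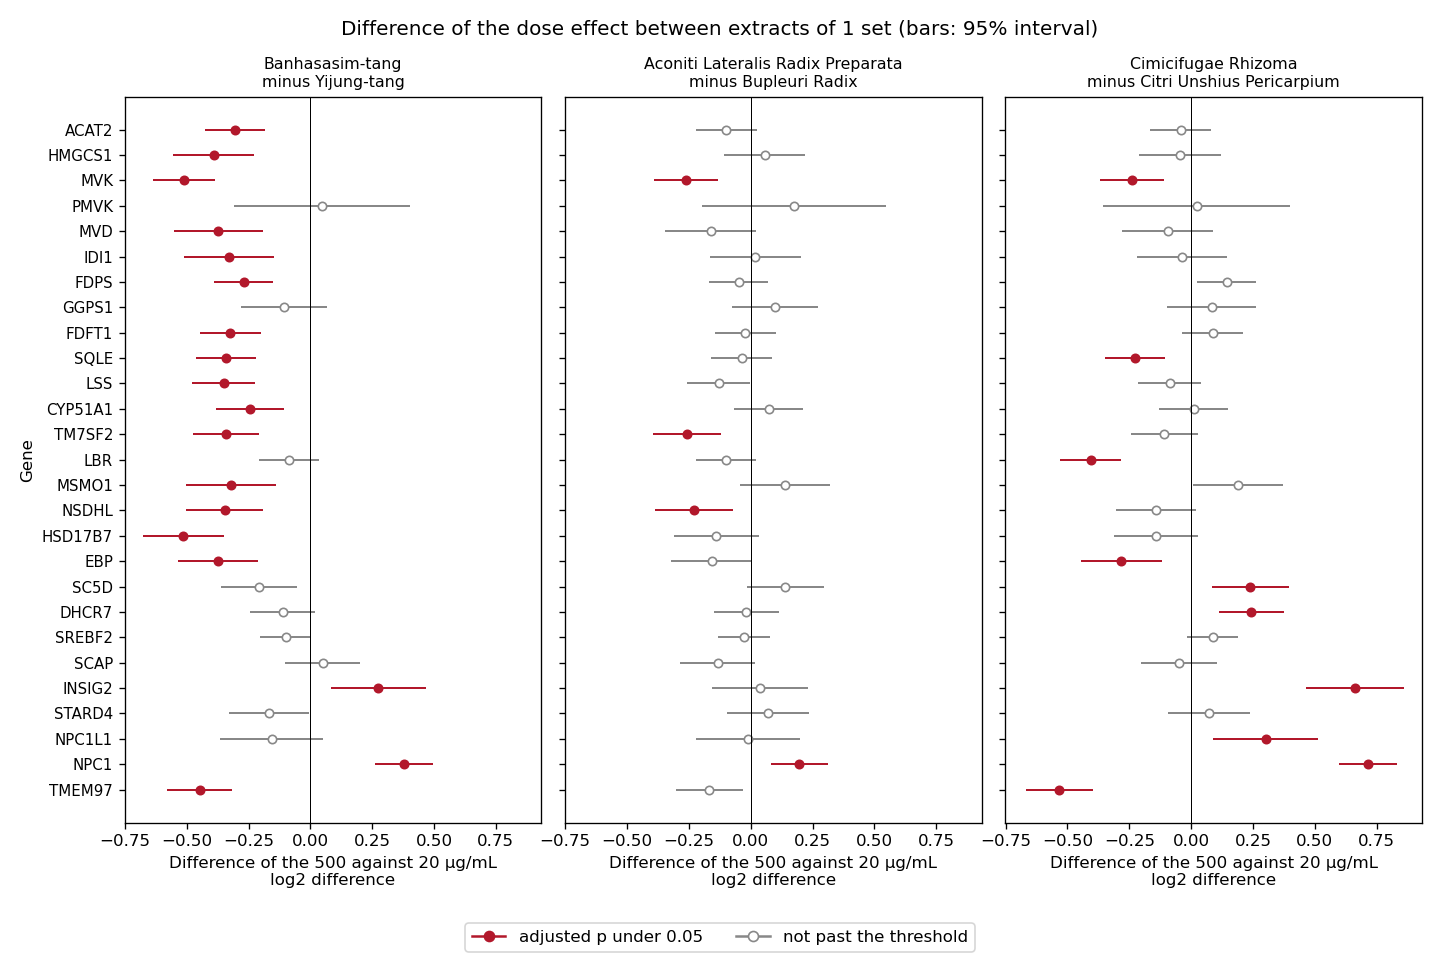
Difference between 2 extracts of a set in their 500 against 20 µg/mL log2 difference, for 27 genes, with 95% intervals; filled red points had an adjusted p under 0.05. Most enzymes lie left of 0 for Banhasasim-tang minus Yijung-tang, whereas for Cimicifugae minus Citri red points lie on both sides.

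Against vehicle, 9 to 21 of the 28 genes were lower at 500 µg/mL. The 6 comparisons share the 3 vehicle libraries, whose sample codes form a set of their own within BatchB, so treatment and set cannot be told apart. Of the 28 genes 21 were lower and 3 higher with Aconiti Lateralis Radix Preparata (background 47.4% of all genes called), 21 and 2 with Banhasasim-tang (34.7%), 20 and 3 with Bupleuri Radix (35.7%), and 16 and 6 with Cimicifugae Rhizoma (45.8%). With Citri Unshius Pericarpium 14 were lower and 3 higher (22.5%), and with Yijung-tang 9 and 7 (32.6%). ACAT2, HMGCS1, IDI1, FDFT1, CYP51A1, MSMO1 and STARD4 were lower in all 6, and SCAP was higher in all 6. HMGCS1 was at 504, 482 and 476 CPM in vehicle and 267, 265 and 239 CPM with Aconiti Lateralis Radix Preparata (-0.92 ± 0.06). Without vehicle replicate 2 the counts were 19 lower and 2 higher, 20 and 2, 19 and 3, 15 and 6, 13 and 2, and 8 and 7, in the same order. INSIG1 passed as lower in 5 of these 6 comparisons with all libraries. Its 32 counts in vehicle replicate 2, against 5 in each of the others, stand behind these calls, and without that library its adjusted p was 0.382 to 0.986 (edgeR).

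At 20 µg/mL the genes already differed from vehicle, in a direction that varied with base composition. Of the 28 genes 11 were lower and 7 higher with Aconiti Lateralis Radix Preparata at 20 µg/mL (background 31.2%), 9 and 7 with Banhasasim-tang (28.4%), 9 and 7 with Bupleuri Radix (21.9%), 10 and 4 with Cimicifugae Rhizoma (19%), 8 and 7 with Citri Unshius Pericarpium (19.3%), and 7 and 8 with Yijung-tang (27.2%). In all 6 extracts TM7SF2, SCAP and SREBF2 were higher than vehicle, and ACAT2, IDI1, MSMO1, INSIG2 and STARD4 lower. TM7SF2 was at 67.5, 71.5 and 69.1 CPM in vehicle and 91.3, 91.03 and 86.4 CPM with 20 µg/mL of Yijung-tang. Transcripts of TM7SF2, SCAP and SREBF2 have a GC content of 63, 58.3 and 57%. Those of ACAT2, IDI1, MSMO1, INSIG2 and STARD4 have 48.3, 42.5, 38.7, 39.1 and 40.6%. Over the 27 genes the 20 µg/mL against vehicle difference correlated with transcript GC content at a Pearson r of 0.745 to 0.871 in the 6 extracts, and at 0.761 to 0.88 without vehicle replicate 2. These r values describe 27 genes that share libraries, and the 6 comparisons share the vehicle. Without vehicle replicate 2 the counts were 10 lower and 4 higher, 6 and 6, 6 and 6, 8 and 3, 7 and 4, and 6 and 6, in the order above. The 15 calls with Citri Unshius Pericarpium became 9 without vehicle replicate 1, and 9 without its own 20 µg/mL replicate 3.

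With a trend on GC content removed from each library, the counts at 20 µg/mL became 11 lower and 1 higher, 1 and 0, 4 and 1, 7 and 0, 3 and 0, and 1 and 2, in the same order of extracts. The 28 genes moved by up to 0.333 (log2) under this correction at 20 µg/mL against vehicle, leaving out INSIG1. All genes tested behaved alike in this respect: the number called at 20 µg/mL went from 5028 to 2769, 4576 to 682, 3532 to 1028, 3050 to 1321, 3108 to 1034 and 4371 to 1537, so the drop is not particular to the 28 genes. Between 500 and 20 µg/mL they moved by at most 0.047, and r with GC content was -0.268 to 0.149. With the correction the dose comparison gave 21 lower and 2 higher for each of Aconiti Lateralis Radix Preparata, Banhasasim-tang and Bupleuri Radix, 15 and 4 for Cimicifugae Rhizoma, 10 and 0 for Citri Unshius Pericarpium and 2 and 0 for Yijung-tang. At 500 µg/mL against vehicle it gave 6 lower and 1 higher for Yijung-tang, against 9 and 7 without it, and 23 and 2 for Aconiti Lateralis Radix Preparata. TM7SF2 with both Citri Unshius Pericarpium and Yijung-tang, and MVK, MVD and LSS with Yijung-tang, were above vehicle at 500 µg/mL, and with the correction these differences were negative.

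**Figure D5:**
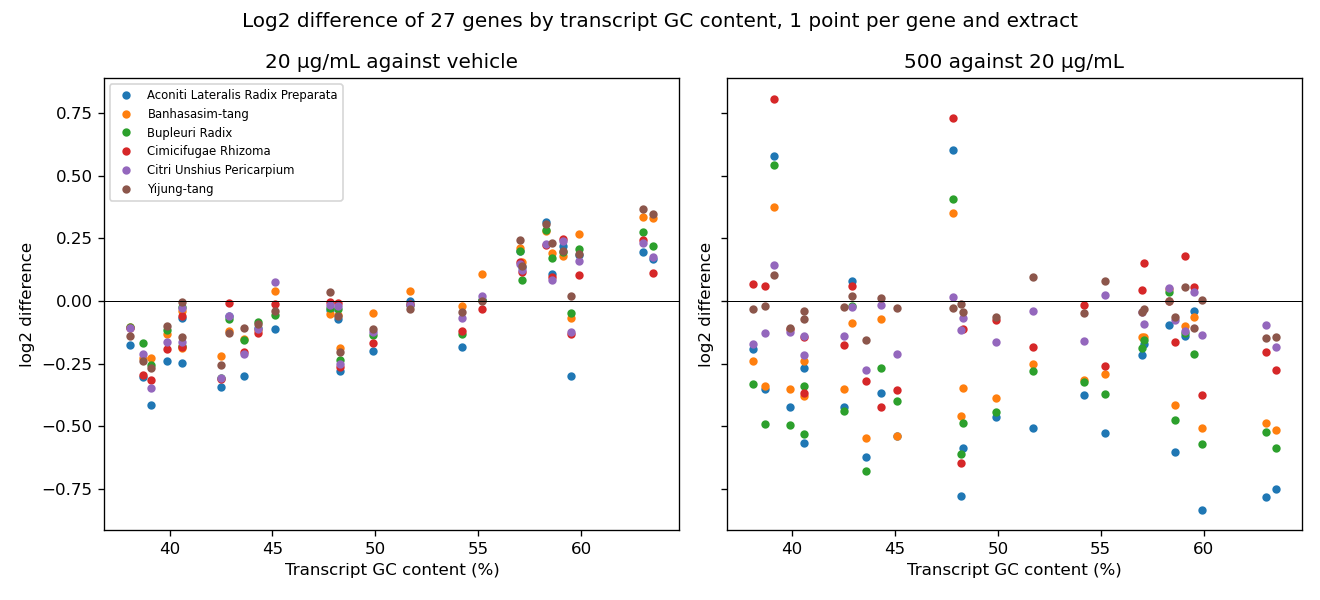
Log2 difference of 27 genes against the GC content of their transcripts (%), 1 point per gene and extract, for 20 µg/mL against vehicle (left) and 500 against 20 µg/mL (right). On the left genes of low GC content lie mostly below 0 and those of high GC content mostly above, with r of 0.745 to 0.871, and on the right r is -0.268 to 0.149.

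Over the means of the 19 replicated groups, levels of most of the 28 genes followed HMGCS1, as a description of groups that share extracts and sets. The closest were CYP51A1 (Pearson r = 0.978), FDFT1 (0.971), ACAT2 (0.963), IDI1 (0.962) and SQLE (0.962). SREBF2 (0.599) and DHCR7 (0.512) were looser, GGPS1 (0.033) and SCAP (-0.229) showed little relation, and INSIG2 (-0.641) and NPC1 (-0.767) ran opposite.

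Other arms of lipid metabolism were read from lists around the path, between 500 and 20 µg/mL. Of 15 tested genes of fatty acid synthesis and desaturation, 13 fell with Bupleuri Radix, 12 with Aconiti Lateralis Radix Preparata, 9 with Banhasasim-tang, 8 with Cimicifugae Rhizoma, 3 with Citri Unshius Pericarpium and 2 with Yijung-tang. Among all genes tested 8.89, 18.1, 6.52, 19.7, 0.92 and 2.12% were lower, in the same order. With Aconiti Lateralis Radix Preparata 1 rose, and with Cimicifugae Rhizoma 2 rose, LPIN1 among them (0.66 ± 0.06). The median difference of the 15 was -0.34 with Aconiti Lateralis Radix Preparata and -0.28 with Bupleuri Radix. Medians over all genes were within 0.00328 of 0, which TMM scaling largely sets. FADS2, a fatty acid desaturase, went from 241 to 139 CPM with Aconiti Lateralis Radix Preparata (-0.79 ± 0.04). ACSS2, which makes cytosolic acetyl-CoA from acetate, went from 127 to 77.4 CPM with Banhasasim-tang (-0.71 ± 0.04). Among 17 genes of SREBP processing and sterol-regulated degradation, at most 2 fell and 3 rose in any of the 6 extracts. These highest counts were with Aconiti Lateralis Radix Preparata and Cimicifugae Rhizoma, where 37.2% and 39.2% of all genes were called. ERLIN1, an endoplasmic reticulum protein that takes part in that degradation, fell with Cimicifugae Rhizoma (-0.46 ± 0.03), Aconiti Lateralis Radix Preparata (-0.26 ± 0.03) and Bupleuri Radix (-0.25 ± 0.03). ERLIN2, of the same list, rose with Aconiti Lateralis Radix Preparata (0.24 ± 0.04) and Cimicifugae Rhizoma (0.15 ± 0.04).

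Of 12 tested genes of cholesterol esterification, storage and transport, 5 rose and 1 fell with Aconiti Lateralis Radix Preparata, where 3083 of all 16093 genes rose and 2906 fell. With Cimicifugae Rhizoma 5 rose and 2 fell, where 3140 of all genes rose and 3176 fell. The counts were 3 and 2 with Banhasasim-tang and 2 and 0 with Bupleuri Radix, too few to read a direction from. The medians of these 12 were between 0.03 and 0.11 in the 4 extracts. GRAMD1A, which moves cholesterol from the plasma membrane to the endoplasmic reticulum, went from 32.9 to 65.3 CPM with Aconiti Lateralis Radix Preparata (0.99 ± 0.07). NCEH1, a cholesteryl ester hydrolase, went from 36.3 to 59.8 CPM with Cimicifugae Rhizoma (0.72 ± 0.05). SOAT2, which esterifies cholesterol, rose with the same 2 extracts (0.36 ± 0.06 and 0.41 ± 0.06). Of 9 tested genes of LXR and cholesterol export 3 fell and 1 rose with Aconiti Lateralis Radix Preparata. ABCG8, of the sterol exporter pair, fell with it (-0.48 ± 0.06), and so did RXRA, the receptor partner of LXR (-0.33 ± 0.05). Of the 12 genes of the isoprenoid branch, 1 fell and 2 rose there, among them FNTB and FNTA, the subunits of farnesyltransferase (-0.34 ± 0.05 and 0.23 ± 0.06). These counts for LXR and export and for the isoprenoid branch are near or below the 37.2% of all genes called with this extract.

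Of 8 genes that supply acetyl-CoA or make and use ketone bodies, 3 fell and 2 rose with Aconiti Lateralis Radix Preparata and likewise with Banhasasim-tang, where 37.2% and 15.1% of all genes were called. BDH1, which interconverts ketone bodies, was higher with Cimicifugae Rhizoma, at 35.3 against 20.7 CPM (0.77 ± 0.07), and rose in 4 other extracts, Yijung-tang included (0.33 ± 0.07).

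Bojungikgi-tang, with 1 library per dose, has no replicate check and no test. HMGCS1 was at 424, 413 and 337 CPM at 20, 100 and 500 µg/mL. MVD was at 188, 208 and 160.3 CPM, and SQLE at 401, 386 and 351 CPM. NPC1 was at 116, 113 and 130.3 CPM and INSIG2 at 66.3, 62.6 and 74.7 CPM. In these single libraries the enzymes named were lowest, and NPC1 and INSIG2 highest, at 500 µg/mL.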

How the data were processed

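RNA was sequenced from 60 libraries of HepG2 cells in 22 groups. Per the submitters' processing notes the tools were FastQC 0.11.9, Trim Galore 0.6.5, STAR 2.7.3a and RSEM 1.3.3 with build GRCh38, and the annotation release and the strand setting of the counting are not given in the sources used here. The deposited values are the authors' expected counts per gene (RSEM estimates, 24.5% of values above 0 not whole), rounded here to whole counts. Another 207 columns of the table belong to no sample used here and were left out. Totals of 17598646 to 30451640 counts per library set the precision.

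Groups came from the sample titles. The 57 libraries of the 19 replicated groups were fitted together in R 4.3.3 with edgeR 4.0.16 (filterByExpr, which kept 16093 genes; TMM factors 0.898 to 1.04; quasi-likelihood test; biological coefficient of variation 4.86%). Adjusted p-values are Benjamini-Hochberg over all genes tested in each comparison, with a threshold of 0.05. Symbols, exon lengths and GC content came from GENCODE 29. Promoter windows came from RefSeq. The code was tested on simulated data.

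The genes and lists were chosen with earlier results of these data known. Named genes are all 28, for each surrounding list the 3 called genes with the smallest p in a comparison, and markers by level. Alternatives were DESeq2 1.42.0, median-ratio size factors, no filter and a mean of 1 CPM or more, only the libraries compared, replicate blocks, a GC trend removed, and each library left out.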

Additional observations from a re-analysis of the deposited data

Results flagged for a closer look

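For each set of 2 extracts, edgeR's test of an interaction asked whether the 500 against 20 µg/mL difference of a gene differed between them. Values are the first extract's log2 difference minus the second's, and none has an explanation tested here.

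For Banhasasim-tang minus Yijung-tang 18 genes passed. Among the first enzymes the values were -0.305 for ACAT2, -0.39 for HMGCS1, -0.513 for MVK, -0.372 for MVD, -0.328 for IDI1 and -0.27 for FDPS. They were -0.323 for FDFT1, -0.34 for SQLE and -0.351 for LSS. After lanosterol they were -0.244 for CYP51A1, -0.342 for TM7SF2, -0.321 for MSMO1, -0.347 for NSDHL, -0.514 for HSD17B7 and -0.374 for EBP. TMEM97 was at -0.448, whereas INSIG2 was at 0.275 and NPC1 at 0.379.

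For Cimicifugae Rhizoma minus Citri Unshius Pericarpium 10 genes passed. The values were -0.239 for MVK, -0.227 for SQLE, -0.407 for LBR, -0.282 for EBP and -0.533 for TMEM97. They were 0.239 for SC5D, 0.243 for DHCR7, 0.664 for INSIG2, 0.301 for NPC1L1 and 0.714 for NPC1.

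For Aconiti Lateralis Radix Preparata minus Bupleuri Radix 4 genes passed, MVK at -0.262, TM7SF2 at -0.258, NSDHL at -0.23 and NPC1 at 0.196.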

How the results depend on the processing

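Counts of the 28 genes called between 500 and 20 µg/mL stayed within 1.5 times of the values given for Aconiti Lateralis Radix Preparata, Banhasasim-tang, Bupleuri Radix and Cimicifugae Rhizoma under every alternative run. For Citri Unshius Pericarpium the count of 5 became 3 without a filter, 2 with only the libraries compared, 8 with a replicate block within the set and 10 with the GC trend removed. For Yijung-tang the count of 0 became 1 at a mean of 1 CPM or more and in DESeq2, and 2 with the GC trend removed. Between 100 and 20 µg/mL the count for Aconiti Lateralis Radix Preparata went from 1 to 2 at a mean of 1 CPM or more and in DESeq2, and to 4 with the GC trend removed. For Cimicifugae Rhizoma it went from 0 to 1 and for Yijung-tang from 1 to 0 with only the libraries compared, and for Yijung-tang to 2 with the GC trend removed. The dose differences of Aconiti Lateralis Radix Preparata and Bupleuri Radix differed for 2 genes in place of 4 without a filter. The cause of these moves was not tested.

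Removing the GC trend lowered counts against vehicle to 7 for Yijung-tang at 500 µg/mL, and at 20 µg/mL to 1 for Banhasasim-tang, 5 for Bupleuri Radix, 7 for Cimicifugae Rhizoma, 3 for Citri Unshius Pericarpium and 3 for Yijung-tang. It also turned 18 differences. At 500 µg/mL these became -0.111 for DHCR7 (Banhasasim-tang), -0.0999 for SREBF2 (Bupleuri Radix) and -0.175 for TM7SF2 (Cimicifugae Rhizoma). With Citri Unshius Pericarpium they were -0.131 for MVK, -0.124 for LSS and -0.085 for TM7SF2, and with Yijung-tang -0.0309 for MVK, -0.136 for MVD, -0.0157 for LSS and -0.101 for TM7SF2. At 20 µg/mL they were -0.0148 for MVK, -0.127 for MVD and -0.0877 for TM7SF2 with Aconiti Lateralis Radix Preparata, and -0.000693 for MVD and 0.0111 for CYP51A1 with Banhasasim-tang. MVD was at -0.0498 with Bupleuri Radix and -0.0533 with Citri Unshius Pericarpium, and MVK at -0.00212 with Yijung-tang.

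Same-numbered replicates of a set tended to deviate together, with small correlations. Their median correlation was 0.032, 0.064 and 0.074 in the 3 sets, against -0.021, -0.036 and -0.044 for replicates of other numbers. Of 18 libraries 14, 13 and 14 were closest to one of their own number, although most libraries of the other groups carry another number. Not every pair went together (lowest correlation -0.061, -0.079 and -0.089), and the main fit has no term for the replicate number. A replicate block over all groups gave 1 call for Yijung-tang between 500 and 20 µg/mL and 2 for Aconiti Lateralis Radix Preparata between 100 and 20 µg/mL. A block within the set gave 2 for Yijung-tang between 500 and 20 µg/mL. Between 100 and 20 µg/mL this block gave 3 calls for Aconiti Lateralis Radix Preparata, 1 for Bupleuri Radix, 3 for Cimicifugae Rhizoma and 4 for Yijung-tang. Beside these and the 8 given above for Citri Unshius Pericarpium, blocks moved no count by over 1.5 times.

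With each library left out in turn, counts between 500 and 20 µg/mL ran from 23 to 23 for Aconiti Lateralis Radix Preparata, 21 to 22 for Banhasasim-tang, 22 to 23 for Bupleuri Radix, 14 to 17 for Cimicifugae Rhizoma, 1 to 7 for Citri Unshius Pericarpium and 0 to 0 for Yijung-tang. Between 100 and 20 µg/mL they ran from 0 to 1 for Aconiti Lateralis Radix Preparata, 1 to 1 for Yijung-tang and 0 to 0 for the other 4. Against vehicle, in the same order of extracts, they ran from 21 to 24, 21 to 23, 22 to 23, 21 to 23, 12 to 15 and 12 to 18 at 500 µg/mL, and 14 to 19, 12 to 15, 12 to 14, 11 to 15, 9 to 15 and 11 to 14 at 20 µg/mL. At 500 µg/mL within sets they ran from 12 to 13 for Cimicifugae Rhizoma, 8 to 10 for Aconiti Lateralis Radix Preparata and 20 to 21 for Banhasasim-tang, and for the dose differences from 9 to 11, 2 to 4 and 17 to 18. Each such refit leaves 2 libraries in a group, taken to vary like the other groups. INSIG1 is limited by its low counts, 1 to 32 a library.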
